A study of Mus musculus with 12 samples.

Results

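The genes described here are 10 cyclic nucleotide phosphodiesterases, Pde1a, Pde2a, Pde3b, Pde4a, Pde4b, Pde4d, Pde5a, Pde7a, Pde8a and Pde9a, of 20886 named genes on the array. Every array probe whose RefSeq accession carries one of these symbols was taken, which gave 15 probes of 39429. Resveratrol has been reported to act through this enzyme family, and the set was chosen by the strong variation of the Pde5a probe between arrays, so that the Pde5a values are given as a description and without a test. Liver RNA was measured in female C57BL/6N mice after 6 months on the diets, with 3 mice per group and 1 array per mouse. The mice were bought at 6 weeks of age and kept for 2 weeks before the diets began. Ctrl mice ate a normal formula diet whose carbohydrates were corn starch and sucrose, RS mice ate the same diet with added resveratrol, and in DJ mice Dongjin rice took the place of the starch and sucrose. DJ526 mice ate the DJ526 rice instead, a Dongjin line that makes resveratrol through a stilbene synthase gene transferred from peanut, so that DJ526 and DJ differ in the transferred gene as well as in resveratrol. All 4 groups carry the same mouse genotype.

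Phosphodiesterases open the cyclic ring of cAMP and cGMP and so end the signals of these messengers. In the liver, cAMP carries the fasting signal of glucagon to glucose production, and insulin acts against it in part through phosphodiesterases. Members of the family differ in substrate: Pde4, Pde7 and Pde8 enzymes prefer cAMP, Pde5a and Pde9a prefer cGMP, Pde1a and Pde2a take both, and Pde3b takes cAMP and is inhibited by cGMP. Pde5a is the target of sildenafil and is best known from vascular smooth muscle, lung and platelets.

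Levels are log2 of the signal relative to the 75th percentile of the same array, so that 0 stands for a probe as bright as that percentile, and levels are compared between mice for one probe and never between probes. The 75th percentile lay between 953 and 1167 intensity units, the scanner software marked 73.0% to 80.8% of spots as well above background, and none as saturated. The arrays lay on 3 slides. Slide 1 held the 3 Ctrl mice and DJ mouse 1, slide 2 held DJ mice 2 and 3 and RS mice 1 and 2, and slide 3 held RS mouse 3 and the 3 DJ526 mice. No slide therefore held both Ctrl and RS, Ctrl and DJ526, or DJ and DJ526 mice. A fit with the slide as a block compares Ctrl with the other groups through DJ mouse 1 alone, and DJ526 with the other groups through RS mouse 3 alone. Nothing in the labels says that the mice of a group came from separate cages, and the study kept 10 mice in a cage. Of the 15 probes, 13 were well above background on all 12 arrays. A second Pde7a probe was well above background on 8 arrays and the dimmest of the Pde4b probes on 0.

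The Pde5a probe (A_55_P2042778, 1 spot per array, the only Pde5a probe) was well above background in every mouse. In the Ctrl mice its level was 1.19, 1.24 and 0.06. In the RS mice it was -3.74, -3.37 and -2.14. In the DJ mice it was 0.98, -3.53 and -2.57, and in the DJ526 mice 0.98, 0.95 and 1.08. All RS mice and DJ mice 2 and 3 were thus low, and all Ctrl and DJ526 mice and DJ mouse 1 were high. A supplementary sample sheet of the study gives RS the array identifiers that the labels give DJ, and the reverse; the labels were followed here. Were the sheet right, the group with all 3 mice low would be DJ and the group on both sides would be RS. RS and DJ would then also change places in the slide layout and in all group values and comparisons of the other genes and markers. No mouse lay between -2.14 and 0.06, a gap of 2.21 log2 units with 5 mice below it and 7 above. The range over the 12 mice was 4.98 log2 units. Among the 27344 probes detected in this sense on all 12 arrays the median range was 0.66, and 30 had a wider range than Pde5a. On the intensity scale the processed signal was 81.4 in RS mouse 1 and 2531 in Ctrl mouse 2. The median pixel of the spot was 100 to 218 on the 5 low arrays, against a local background of 17 to 25, so that the low values were still read above the glass around the spot.

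**Figure D1:**
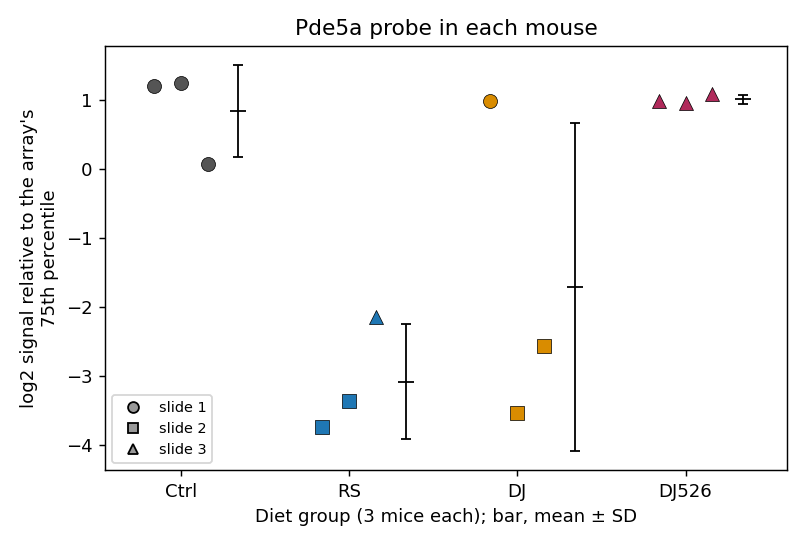
Level of the Pde5a probe in each of 12 mice (log2 of the signal relative to the 75th percentile of the array, vertical axis) by diet group, with the symbol giving the slide and the bar the mean ± SD of 3 mice. The RS mice lie between -3.74 and -2.14, the Ctrl and DJ526 mice between 0.06 and 1.24, and the DJ mice on both sides of the gap.

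By group the mean Pde5a level was 1.00 ± 0.06 in DJ526, 0.83 ± 0.67 in Ctrl, -3.08 ± 0.83 in RS and -1.71 ± 2.38 in DJ (mean ± SD, n = 3 mice). From high to low the order was DJ526, Ctrl, DJ and RS, and neighbours overlapped: the DJ526 mice lay within the range of the Ctrl mice, and the DJ mice spanned nearly the whole range. The log2 difference was -3.91 for RS against Ctrl, -2.54 for DJ against Ctrl and 0.17 for DJ526 against Ctrl, comparisons which share the Ctrl mice. It was 2.71 for DJ526 against DJ and 4.09 for DJ526 against RS. Ctrl and RS did not overlap, nor did DJ526 and RS. In bulk liver, fewer cells of a type and less RNA per cell cannot be told apart.

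The Pde5a level went with the slide in part. On slide 1 all 4 mice were high, and on slide 2 all 4 mice, of both DJ and RS, were low. Slide 3 held both high and low mice. Within slide 1, the DJ mouse differed from the mean of the Ctrl mice by 0.15. Within slide 2, RS differed from DJ by -0.50 with 2 mice each. Within slide 3, the 3 DJ526 mice were above the RS mouse by 3.15. With the slide as a block the log2 difference was -0.35 for RS against Ctrl, 0.15 for DJ against Ctrl and 2.79 for DJ526 against Ctrl. For DJ526 it was 2.65 against DJ and 3.15 against RS. These block values are built from the differences within slides and rest on DJ mouse 1, on RS mouse 3 or on both. Without DJ mouse 1, the high mouse of its group, DJ against Ctrl was -3.88 and DJ526 against DJ 4.05. The spot lay at row 475 and column 9 of the array, and 370 probes lay within 12 rows and 8 columns of it. The median deviation of these neighbours from their own medians was -0.03 to 0.03 on every array. Over the 183 dimmer neighbours it was highest in RS mouse 3, at 0.38, and lowest in DJ526 mouse 1, at -0.24. The part of the slide and of the position in the Pde5a differences was not tested.

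The gene's promoter is shown because Pde5a carries the widest range of the set. RefSeq promoter windows (250 bases before the start, GRCm38.p6) were matched for 7 of the 10 genes, Pde1a, Pde2a, Pde4a, Pde4b, Pde4d, Pde5a and Pde8a, with 19 windows in all. The window of Pde5a is chr3:122728908-122729157 on the + strand, printed 5′ to 3′ with the GC box (the letters GGGCGG, searched on both strands) in capitals.
Pde5a: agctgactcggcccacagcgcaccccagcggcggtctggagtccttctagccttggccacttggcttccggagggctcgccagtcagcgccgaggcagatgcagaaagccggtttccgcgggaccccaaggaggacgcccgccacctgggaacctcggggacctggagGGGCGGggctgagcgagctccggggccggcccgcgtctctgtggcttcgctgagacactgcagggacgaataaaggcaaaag
It held 1 GC box, a motif found in 32.7% of all 32851 windows and in 5 of the 19 windows of the set, and no TGACG on either strand, the core letters of the cAMP response element (the capitals below read CGTCA where it lies on the other strand). These letters were in 17.8% of all windows and in 4 of the 19, which belong to Pde1a, Pde4a, Pde4b and Pde8a. The palindromic form TGACGTCA was in 1.55% of all windows and in 0 of the 19. Stretches of 65 and 64 bases from a window of Pde4a (chr9:21184021-21184085) and one of Pde4b (chr4:102421491-102421554), both on the + strand, are shown with the core letters in capitals because Pde4b had the largest fold change among the brightest probes of the tested genes, described below.
Pde4a: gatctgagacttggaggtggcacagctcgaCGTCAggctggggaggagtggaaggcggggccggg
Pde4b: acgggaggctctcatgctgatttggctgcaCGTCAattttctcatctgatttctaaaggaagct
These matches are letters in a window, and binding there was not measured.

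Genes whose level over the 12 arrays ran most like Pde5a were sought among 30085 probes detected in all 3 mice of some group. The highest Pearson r over 12 arrays belonged to Slc49a4 (0.98), Creb3l1 (0.97), Emilin3 (0.97), Icmt (0.97) and Olfr362 (0.96). The lowest belonged to Apob (-0.95), Bbs5 (-0.95), Tmem242 (-0.95), Amz2 (-0.93) and Anp32a (-0.92). In all, 21 probes had r above 0.9 and 15 below -0.9. Like Pde5a, Slc49a4, a solute carrier, was low in the same 5 mice (-2.77 to -2.02) and high in the other 7 (-0.35 to 0.96). Apob, the main protein of very-low-density lipoprotein, ran from 4.46 in Ctrl mouse 2 to 5.25 in RS mouse 1 on this probe. The second Apob probe had an r of 0.63, of the opposite sign. Second probes also differed for Icmt (r of -0.08 and 0.38), Bbs5 (-0.10) and Anp32a (-0.27), while the second Tmem242 probe had r of -0.92 and the other Amz2 probes -0.76 and -0.68. Slc49a4, Creb3l1, Emilin3 and Olfr362 had no other probe among those ranked, so their likeness rests on a single probe each. The arrays share their slides and their scaling, and all these values describe the same 12 arrays. No other phosphodiesterase of the set followed Pde5a: over their 13 probes that could be ranked, r ran from -0.70 (Pde1a) to 0.42 (Pde4a).

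**Figure D2:**
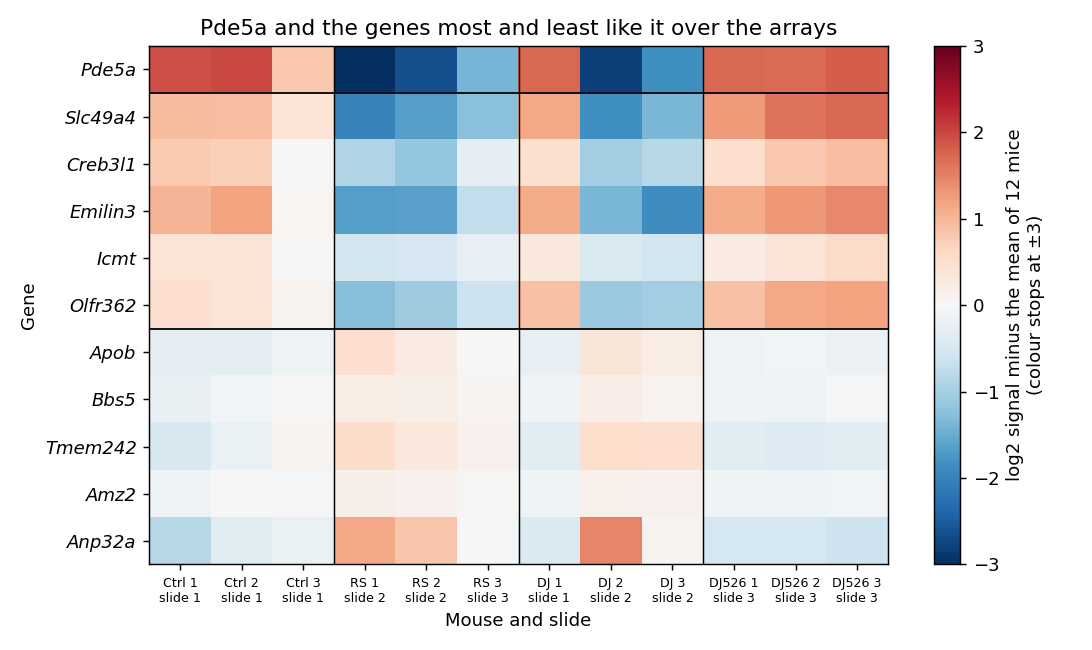
Level of Pde5a (top row) and of the 5 genes with the highest and the 5 with the lowest Pearson r to it, in each mouse (columns, by group, with slide), as log2 signal minus the mean of 12 mice. The upper genes are low in the same 5 mice as Pde5a and the lower ones are higher in those mice than in the other 7.

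For the other 9 genes, limma with Benjamini-Hochberg adjustment over all probes called 0 of 14 probes in any comparison at an adjusted p under 0.05. The share of all probes called was 0% for RS against Ctrl, 0% for DJ against Ctrl, 0.00507% for DJ526 against Ctrl, 0.0101% for DJ526 against DJ and 0.0101% for DJ526 against RS. It was 0% when the change with resveratrol on starch and sucrose (RS against Ctrl) was subtracted from that on rice (DJ526 against DJ). At an unadjusted p under 0.05, limma had 0 of the 14 for RS against Ctrl (background 6.03%), 1 for DJ against Ctrl (background 5.18%) and 2 for DJ526 against Ctrl (background 10.8%). It had 3 for DJ526 against DJ (background 9.87%), 1 for DJ526 against RS (background 5.45%) and 0 for this subtraction (background 6.05%). The methods' t-test, on the same values, had 0 for RS against Ctrl (background 5.01%), 2 for DJ against Ctrl (background 4.61%) and 3 for DJ526 against Ctrl (background 12.8%). It had 2 for DJ526 against DJ (background 10.8%), 0 for DJ526 against RS (background 6.13%) and 0 for the subtraction (background 6.19%). Of the 14 probes, the mice of the groups did not overlap for 2 in RS against Ctrl (background 10.2%), 3 in DJ against Ctrl (background 9.34%) and 5 in DJ526 against Ctrl (background 20.6%). The same held for 3 in DJ526 against DJ (background 18.4%) and 1 in DJ526 against RS (background 11.1%). Since the probes are few and several share a gene, nothing is read from these counts. The median log2 fold change of the 14 probes was -0.13, 0.02 and -0.09 for RS, DJ and DJ526 against Ctrl, where that of all probes was 0.03, -0.02 and 0.02.

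Pde4b, a cAMP-specific enzyme known from leukocytes and brain, was lowest in the DJ526 mice. On its brighter probe (A_65_P01319) the level was -1.09, -1.12 and -1.15 in Ctrl and -1.19, -1.57 and -1.31 in RS. It was -1.01, -1.17 and -1.35 in DJ and -1.60, -1.77 and -1.71 in DJ526. Every DJ526 mouse was below every mouse of the other groups. The log2 fold change of DJ526 was -0.57 against Ctrl, a level 32.7% lower (standard error 0.12, limma adjusted p = 0.132). It was -0.52 against DJ (standard error 0.12, limma adjusted p = 0.211) and -0.34 against RS (standard error 0.12, limma adjusted p = 0.698), so none passed the threshold. RS also lay below Ctrl without overlap, by -0.24 (limma adjusted p = 0.865). The second detected probe was -3.14, -3.30 and -3.17 in DJ526 and between -3.22 and -2.37 in the other mice, and gave -0.39 against Ctrl and -0.46 against DJ (limma adjusted p = 0.449 for both). The r between the probes over 12 arrays was 0.90, a description of probes of one gene. Within slide 3 the DJ526 mice lay below the RS mouse by -0.38 on the brighter probe. With the slide as a block DJ526 differed by -0.40 from Ctrl, by -0.51 from DJ and by -0.38 from RS, and RS from Ctrl by -0.01. The block value against RS is the difference within slide 3 again. All these block values rest on RS mouse 3, on DJ mouse 1 or on both. The dimmest Pde4b probe was not well above background in any mouse. On it every DJ mouse was below every Ctrl mouse, by -0.30 (limma adjusted p = 0.9996), so this undetected probe is among those counted without overlap in DJ against Ctrl.

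**Figure D3:**
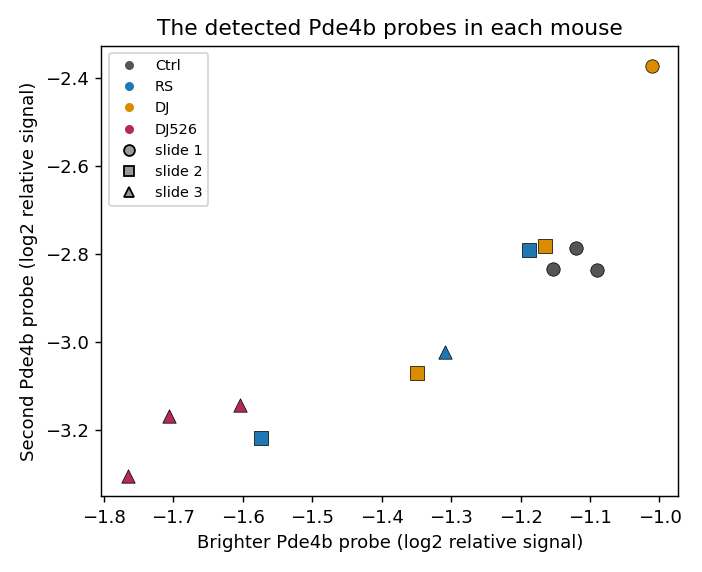
The 2 detected Pde4b probes in each mouse, with the brighter probe on the horizontal axis and the second on the vertical axis (both log2 relative signal), colour for diet group and symbol for slide. The 3 DJ526 mice lie at the lower left, between -1.77 and -1.60 on the brighter probe.

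The remaining cAMP-specific enzymes had smaller differences on their brightest probes than Pde4b had in DJ526. Pde4a was -0.99, -0.77 and -0.68 in Ctrl, and its brighter probe had group means between -1.13 and -0.81. A second Pde4a probe was lower in every DJ mouse (-3.11 to -2.89) than in every Ctrl mouse (-2.65 to -2.44), by -0.42 (standard error 0.20, limma adjusted p = 0.955), and the r of the probes was 0.67. Pde4d, whose brighter probe had group means between -3.15 and -2.84, overlapped in every pair of groups. Its lowest mouse was DJ mouse 1, at -3.60, and its highest Ctrl mouse 3, at -2.51. Pde7a had means between -3.26 and -3.03, and its second probe, well above background in 1 Ctrl, 2 RS, 2 DJ and 3 DJ526 mice, had lower levels in Ctrl (-8.00 to -6.79) than in DJ526 (-6.61 to -6.09), by 0.79 (limma adjusted p = 0.488), and than in RS (-6.77 to -6.33), by 0.66 (limma adjusted p = 0.902). Pde8a had means between -4.31 and -4.06, with no pair of groups apart.

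Pde3b, the form through which insulin lowers cAMP in liver and fat, was 2.79, 2.74 and 2.78 in Ctrl and 2.64, 2.60 and 2.40 in DJ. Every DJ mouse was below every Ctrl mouse, with a log2 fold change of -0.23 (standard error 0.09, limma adjusted p = 0.954). In DJ526 the levels were 2.62, 2.71 and 2.70, again below every Ctrl mouse, by -0.09 (limma adjusted p = 0.754). The RS mice, at 2.66, 2.54 and 2.90, lay on both sides of the Ctrl mice. Within slide 1 the DJ mouse was below the Ctrl mean by -0.14. With a term for the slide, the DJ526 difference from Ctrl was -0.26.

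Among the enzymes that take cGMP, Pde9a, a high-affinity cGMP phosphodiesterase, was 0.06, 0.24 and 0.11 in DJ and -0.34, -0.41 and -0.44 in DJ526. These groups did not overlap, and the log2 fold change was -0.53 (standard error 0.22, limma adjusted p = 0.471). The Ctrl mice spread over both, at -0.48, 0.40 and -0.35. The RS mice were lowest on average, at -0.25, -0.92 and -0.56, but RS against Ctrl (-0.43) overlapped. DJ and DJ526 mice shared no slide, and with the slide as a block the difference was -0.60. Pde2a, which cGMP stimulates, was 2.31, 2.36 and 2.27 in Ctrl and 2.63, 2.36 and 2.46 in DJ526. The lowest DJ526 mouse was barely above the highest Ctrl mouse, and the log2 fold change was 0.17 (standard error 0.10, limma adjusted p = 0.568). It was -0.15 with the slide as a block. Pde1a, which calcium and calmodulin activate, ranged from -2.05 to -1.58 over the 12 mice, with every pair of groups overlapping. For the change with resveratrol on rice minus that on starch and sucrose, the log2 values of the 9 brightest probes ran from -0.28 to 0.34.

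**Figure D4:**
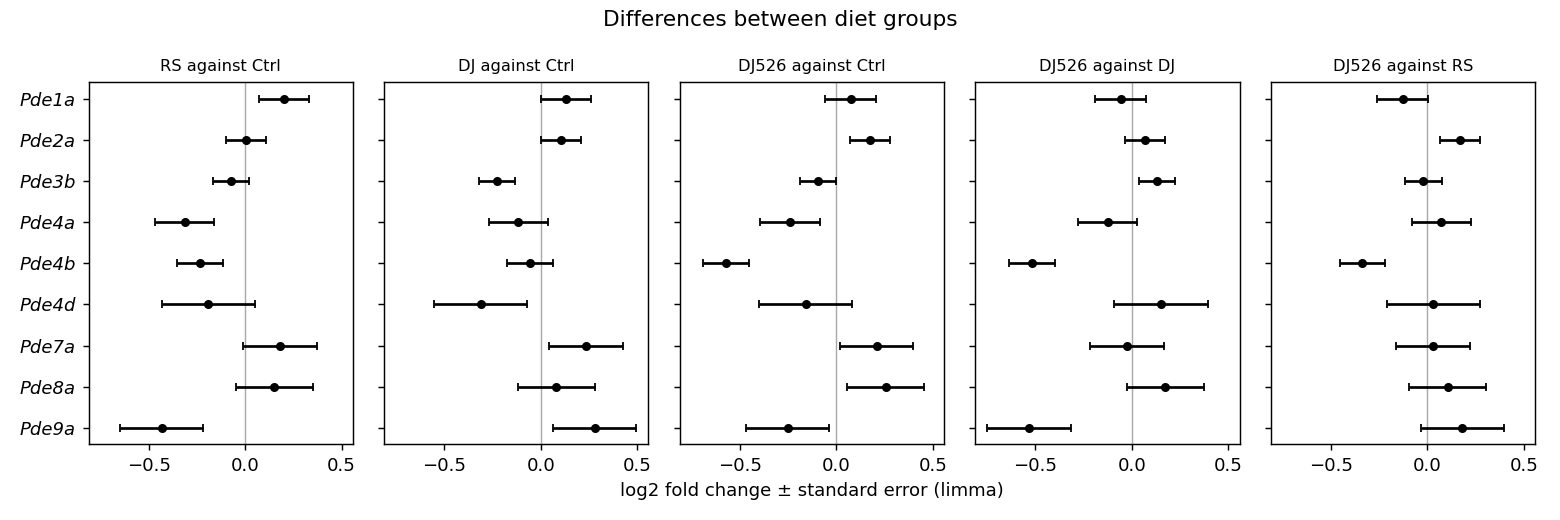
Log2 fold change with its standard error (limma, horizontal axis) of the brightest probe of the 9 tested genes in 5 comparisons of 3 mice against 3. The points farthest from 0 are Pde4b in DJ526 against Ctrl (-0.57) and Pde9a in DJ526 against DJ (-0.53), and none passed the adjusted threshold.

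**Figure D5:**
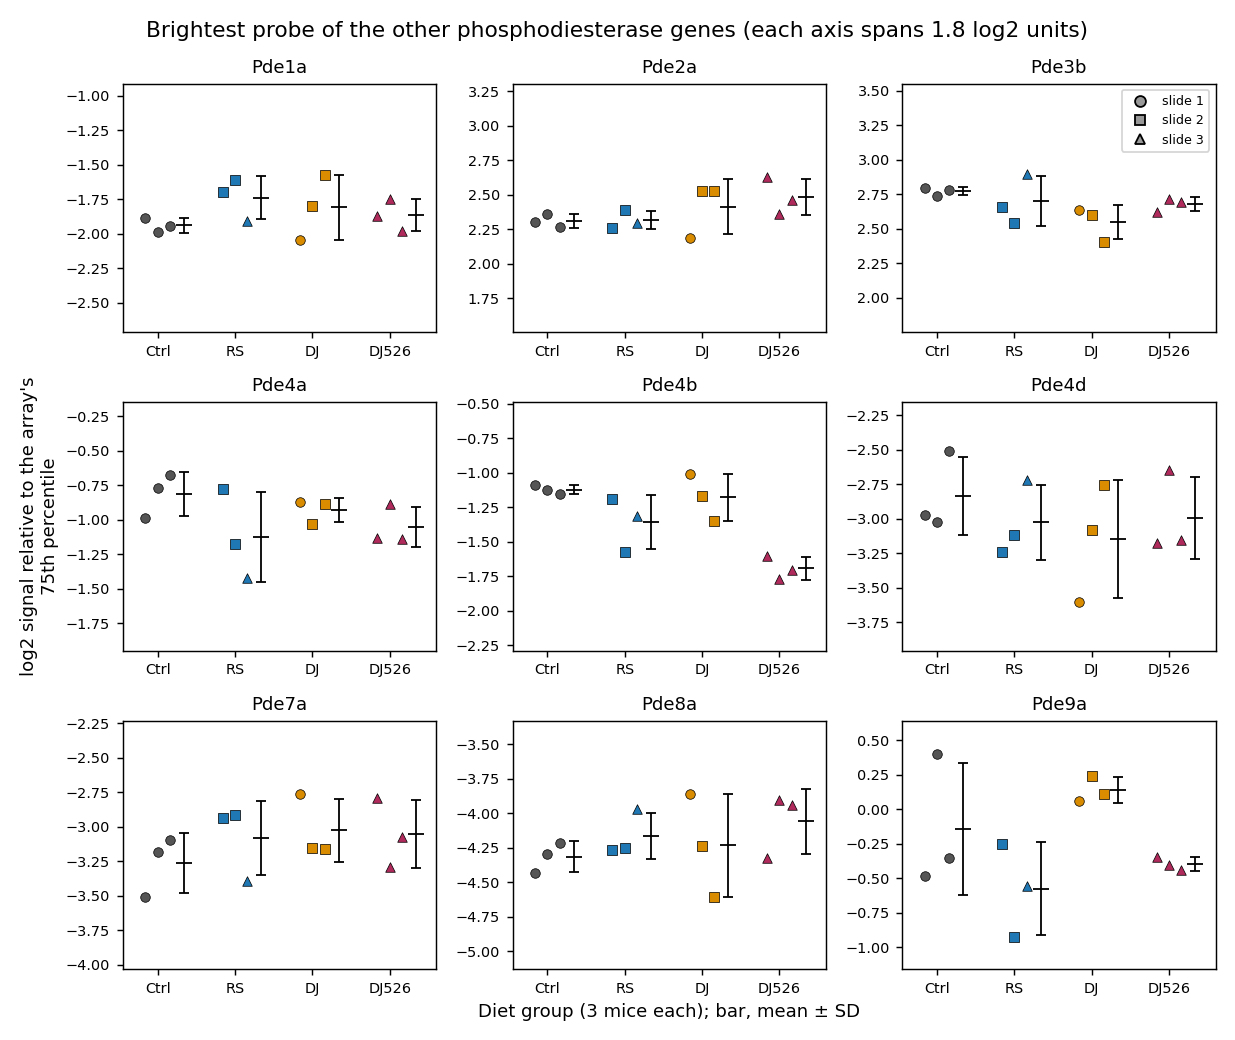
Level of the brightest probe of the 9 tested genes in each mouse (log2 of the signal relative to the 75th percentile of the array), with symbols for slides and bars for the mean ± SD of 3 mice. The panels share one axis length, and the spread between mice of a group is about as wide as the differences between groups in most of them, with Pde4b in DJ526 the clearest exception.

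The rest of the pathway was read from 5 lists with 84 genes, all on the array, of which 73 had a brightest probe well above background on every array. limma called 0 of the 84 in any comparison, with a lowest adjusted p of 0.173. At an unadjusted p under 0.05 it had 7 higher and 3 lower for DJ526 against Ctrl (10.8% of all probes in either direction), 4 higher and 2 lower for RS against Ctrl (6.03% of all probes) and 0 higher and 2 lower for DJ against Ctrl (5.18% of all probes). It had 12 higher and 2 lower for DJ526 against DJ (9.87% of all probes), 4 and 3 for DJ526 against RS (5.45%), and 5 and 3 for the change on rice minus that on starch and sucrose (6.05%). The shares of all probes were not split by direction, so nothing is read from these counts or their directions. Of the 14 other genes with a Pde symbol, not all of them enzymes, 12 were well above background on every array. Pde3a, the relative of Pde3b known from heart and vessels, had a log2 fold change of -1.04 for DJ526 against Ctrl (limma adjusted p = 0.173) and -1.03 against DJ (limma adjusted p = 0.229). Pde1c was at 0.62 for DJ526 against Ctrl (limma adjusted p = 0.283). Against Ctrl, Pde8b was at -0.36 for RS (limma adjusted p = 0.689), -0.34 for DJ (limma adjusted p = 0.893) and -0.04 for DJ526.

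The next list held 25 cyclases, their receptors and nitric oxide synthases, most of which make or trigger cAMP and cGMP. In it Gucy2c, the guanylin receptor, had a log2 fold change of 0.91 for DJ526 (limma adjusted p = 0.173) and 0.83 for RS against Ctrl (limma adjusted p = 0.547). Nos2 was at -0.34 for DJ against Ctrl (limma adjusted p = 0.953), and Adcy8 was well above background on 1 of the 12 arrays. Of 10 genes for receptors that raise cAMP and their G protein, the beta-1 adrenergic receptor Adrb1 was at -0.72 for RS against Ctrl (limma adjusted p = 0.681), with Adora2a at 0.25 and Gnas at -0.12. Of 21 effectors, Abcc4, which exports cyclic nucleotides, was at 0.92 for RS against Ctrl (limma adjusted p = 0.441), the kinase subunit Prkaca at 0.40, and the inhibitor Pkib at 0.31 for DJ526 against Ctrl. Of 14 genes that cAMP induces in liver, the kinase gene Sik1 was at -0.50 for DJ526 against Ctrl (limma adjusted p = 0.368). Pck1, which starts glucose production, was at 0.22 for DJ526 (limma adjusted p = 0.527) and Per1 at -0.23 for RS against Ctrl. The median log2 fold change of this last list was -0.04, 0.09 and -0.11 for RS, DJ and DJ526 against Ctrl, where that of all probes was 0.03, -0.02 and 0.02.

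Markers of liver cell types were read as the sum of their signals relative to the 75th percentile. All 5 hepatocyte markers were well above background in every mouse, with a sum of 1486 to 1556 in Ctrl, 1487 to 1691 in RS, 1622 to 1742 in DJ and 1404 to 1481 in DJ526. The DJ526 mice, which were also lowest in Pde4b, thus lay below all others in this sum, but not in every marker. Over the 5 markers the median log2 fold change of DJ526 was -0.003 against Ctrl, -0.05 against RS and -0.13 against DJ. In DJ526 against Ctrl, Alb, whose probe was the brightest, was at -0.18 (limma adjusted p = 0.282) and Cps1 at 0.38. Of the 5, limma called 0. For the cells in which Pde5a is best known, 4 of 5 smooth muscle markers were well above background on every array, and their sum was 4.76 to 8.38 in Ctrl, 4.99 to 6.66 in RS, 4.97 to 6.12 in DJ and 4.59 to 6.99 in DJ526. All 4 platelet markers were, with sums of 0.79 to 0.94, 0.61 to 1.03, 0.59 to 1.46 and 0.58 to 0.80 in the same order. A sum weighs bright probes most. The median log2 fold change for RS, DJ and DJ526 against Ctrl was -0.42, -0.68 and -0.76 over the smooth muscle markers and -0.29, -0.30 and -0.42 over the platelet markers, and limma called 0 of these markers. The part of these cells in the Pde5a levels was not tested. For leukocytes, in which Pde4b is known, the 5 macrophage markers on the array summed to 82.4 to 125 in Ctrl, 61.4 to 101 in RS, 63.8 to 97.4 in DJ and 64.2 to 95.2 in DJ526. The 6 lymphocyte markers summed to 2.42 to 3.06, 2.34 to 3.46, 2.53 to 6.04 and 2.84 to 4.75, and the 3 neutrophil markers to 1.09 to 8.39, 0.83 to 2.27, 1.04 to 3.87 and 1.04 to 1.71. For RS, DJ and DJ526 against Ctrl, the median log2 fold change was -0.34, -0.24 and -0.19 over the macrophage markers. It was 0.46, 0.60 and 0.90 over the lymphocyte markers and -0.88, -0.56 and -0.99 over the neutrophil markers, and limma called 0 of them. The part of hepatocytes and leukocytes in the Pde4b levels was not tested. Over all mice the sum was 10.2 to 13.8 for stellate cells, 37.0 to 47.8 for endothelium, 1.09 to 2.72 for cholangiocytes and 38.3 to 136 for red cell precursors.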

How the data were processed

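Liver RNA of 12 mice was hybridised to 12 one-colour arrays. The authors deposited the spot intensity values of each array from Feature Extraction 11.5.1.1, per the file headers, with the processed signal after background subtraction, and a table of globally normalized intensities, which is the processed signal times 1 factor per array. Groups and replicate numbers came from the sample titles. The source name of Ctrl replicate 3 repeats that of Ctrl replicate 1, and the titles, which number them apart, were followed. Here the processed signal was averaged per probe without flagged spots, put on the log2 scale and scaled by the 75th percentile of the array (the authors deposited no log2 values). limma 3.58.1 in R 4.3.3 was fitted to 39429 probes with 1 mean per group and a robust, trended prior, with Benjamini-Hochberg adjustment of the p-values (threshold 0.05). RefSeq accessions named 27508 probes. The phosphodiesterases, the 5 pathway lists and the 10 marker lists were chosen with earlier results of these data known. A gene was read by its brightest probe, and values with a test are given where it had an unadjusted p under 0.05 or groups that did not overlap. In each pathway list up to 3 genes were named, by the smallest unadjusted p against Ctrl, and like genes were the 5 with the highest and the 5 with the lowest r. Second probes were described, after their values were seen, where groups did not overlap. The fit was tested on simulated data. The number of arrays limits the precision. The limma p-values set a difference against the spread between mice within groups, shared over the 4 groups and moderated by the prior. Alternatives were other background corrections, scalings, filters, priors, blocks, groups in the fit, the methods' t-test and leaving out each mouse. Figures were drawn with matplotlib 3.10.9 in Python 3.11.15.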

Additional observations from a re-analysis of the deposited data

Results flagged for a closer look

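On the log2 scale the Pde5a level of every RS mouse lay below the Ctrl mean, by -4.57 to -2.98, and that of every DJ526 mouse lay above the DJ mean, by 2.66 to 2.78. That mean lies between DJ mouse 1, at 0.98, and the 2 low DJ mice, and DJ and DJ526 overlapped. The change with resveratrol on rice minus that on starch and sucrose was thus 6.62. The difference was not tested, since Pde5a was chosen by its values, and with the slide as a block it was 3.00. Without DJ mouse 1 it was 7.97.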

How the results depend on the processing

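Under 23 alternatives, or 22 for the change on rice minus that on starch and sucrose, which needs all groups in the fit, no probe of the 9 tested genes was called in any of the 6 comparisons, and the lowest adjusted p was 0.0745, for Pde4b in DJ526 against Ctrl with quantile normalization (limma). For Pde4b in DJ526 against Ctrl the limma adjusted p ran up to 0.588, and the log2 fold change kept its direction, between -0.65 and -0.40. Many alternatives cannot change this fold change, among them the prior, the probe filter, the t-test and leaving out a DJ or RS mouse, so their agreement is no check. Against DJ the Pde4b log2 fold change ran from -0.61 to -0.43 and against RS from -0.44 to -0.25. Pde3b in DJ against Ctrl ran from -0.27 to -0.14 and Pde9a in DJ526 against DJ from -0.62 to -0.47. Pde2a in DJ526 against Ctrl turned from 0.17 to -0.15 with the slide as a block, and the cause was not tested. Pde5a in RS against Ctrl ran from -4.38 to -3.59 over the left-out mice and moved to -0.35 with the slide as a block. DJ against Ctrl ran from -3.88 to -1.63 over the left-out mice. DJ526 against Ctrl, at 0.17, ran from -0.21 to 0.37 over the left-out mice and was 2.79 with the slide as a block. With the median pixel minus the local background, an alternative chosen after seeing the data, it was -0.07, and the other Pde5a differences kept their direction.

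With the replicate number as a replicate block, 0 probes of the tested genes were called in each comparison. Each group held each number once, so this block cannot change a fold change, only its p-value. For Pde4b in DJ526 against Ctrl (-0.57) the limma adjusted p was 0.204. The deviations of same-numbered mice of different groups correlated between -0.27 and 0.26 (median -0.02). Those of differently numbered mice correlated between -0.34 and 0.35 (median 0.02), so that same-numbered mice were not more alike in this measure. The 3 mice per group and the uneven spread of the groups over the slides limit the precision of every difference.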
